A study of Homo sapiens with 4 samples.

Results

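Secreted inflammatory cytokines and chemokines are signalling proteins that a stressed or stimulated cell releases to act on itself, on its neighbours or on recruited leukocytes. The genes described here were taken by name from a list of 10 cytokine and chemokine genes linked to NF-kB (CSF1, IL6, TNF, CXCL1, CXCL2, CXCL3, CXCL8, CCL2, LIF and IL11), and 9 of them were found among the 28973 genes of the deposited table. The list was chosen with earlier results of these data known. CXCL1 was not analysed here. RNA sequencing compared 2 libraries labelled PA with 2 libraries labelled BSA, all from TOV-112D, an established human ovarian cancer line. Per the labels, PA cells received palmitic acid, a saturated fatty acid, and BSA cells received bovine serum albumin as the negative control; both groups carry the dose 200 µM and the time 24 h. All cells grew in RPMI-1640 medium with fetal bovine serum, penicillin and streptomycin. The labels do not state whether replicates were separate cultures, so p-values here measure library-to-library spread alone, and that spread could be technical.

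For the PA samples the labels contradict each other, because their description names a knockdown of SPTLC2 and the treatment text also mentions a short hairpin against ZDHHC15. ZDHHC15 had 190083 and 167798 counts in the libraries labelled PA and 291 and 225 counts in the BSA libraries. SPTLC2 had 2194 and 1740 counts in the libraries labelled PA and 1524 and 1080 counts in the BSA libraries, so neither gene was lower in PA than in BSA. ZDHHC15 was thus 824-fold higher in PA by the fitted value, which no label accounts for. Each PA-over-BSA value below sets apart libraries that differ both in the labelled treatment and in this gene, and effects of the 2 cannot be told apart. Total counts ran from 23722074 to 31695944 per library. The BSA libraries stood further apart from each other than the PA libraries did, with an SD across tested genes of 0.483 for the log2 ratio of PA replicate 2 over 1 and 1.05 for that of BSA replicate 2 over 1. Between the BSA libraries the difference ran along transcript GC content, with a median log2 ratio of -1.46 in the lowest of 10 GC bins and 0.39 in the highest. Of a list of epithelial and ovarian tumour markers with VIM, KRT8, KRT18, VIM and MUC16 were expressed. PAX8 had 188 and 179 counts in PA and 78 and 171 in BSA. KRT19 and WT1 had at most 5 counts and EPCAM and CDH1 at most 29 counts in any library. Leukocyte markers summed to 6.47 and 5.09 CPM (read counts scaled to library size) in PA and 4.49 and 8.12 CPM in BSA, and LYZ and CD163 had at most 1 count in any library. ITGAM, a myeloid integrin gene of that list, had 90 and 63 counts in PA and 17 and 23 in BSA; of the 3 tested genes of the list, 1 was higher and 1 lower at an unadjusted p under 0.05, and 0 passed the adjusted test (edgeR; DESeq2 called 1 higher and 1 lower). Over all tested genes 13.1% were higher and 11.2% lower at that unadjusted p, and DESeq2 called 6.13% higher and 4.42% lower.

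NF-kB is a family of transcription factors held in the cytoplasm by inhibitor proteins until a receptor for a cytokine or a microbial product, or cell stress, triggers the destruction of the inhibitor. In the nucleus it binds short kB sites near inflammatory genes, often next to AP-1 and C/EBP sites. The messenger RNAs of many such genes are short-lived, since AU-rich elements in their untranslated ends are bound by decay factors such as the ZFP36 protein. In ovarian cancer, IL-6 and the CXC chemokines are known as factors that tumour cells and their surroundings secrete into ascites.

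The promoters are shown because the members are grouped by their link to NF-kB. RefSeq promoters (build GRCh38.p14) were matched for 6 of the 9 members, and the 150 bases upstream of the RefSeq start are printed 5′ to 3′ in the direction of the gene. That start can differ from the gene coordinates of the deposited table, which are given below. The IL6 window lies inside its gene span there, and those of CXCL3, CXCL8 and, by its last base, CXCL2 run into theirs. The windows are chr7:22727050-22727199 (plus strand) for IL6, chr6:31575415-31575564 (plus strand) for TNF, chr4:74099196-74099345 (minus strand) for CXCL2, chr4:74038690-74038839 (minus strand) for CXCL3, chr4:73740419-73740568 (plus strand) for CXCL8 and chr19:55370464-55370613 (minus strand) for IL11. Capitals mark the NF-kB consensus, the shorter kB motif GGNNTTTCC, the AP-1 motif TGANTCA and the TATA box TATAAA, all searched on both strands; the consensus and the shorter kB motif overlap where both occur.
IL6: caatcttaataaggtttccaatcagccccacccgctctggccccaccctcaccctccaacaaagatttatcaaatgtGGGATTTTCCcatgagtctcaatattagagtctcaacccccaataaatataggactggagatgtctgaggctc
TNF: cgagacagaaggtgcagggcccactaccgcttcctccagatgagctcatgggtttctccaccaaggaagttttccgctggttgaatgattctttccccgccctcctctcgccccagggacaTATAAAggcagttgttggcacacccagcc
CXCL2: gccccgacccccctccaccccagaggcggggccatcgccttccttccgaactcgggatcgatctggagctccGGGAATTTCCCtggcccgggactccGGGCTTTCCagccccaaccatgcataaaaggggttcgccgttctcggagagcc
CXCL3: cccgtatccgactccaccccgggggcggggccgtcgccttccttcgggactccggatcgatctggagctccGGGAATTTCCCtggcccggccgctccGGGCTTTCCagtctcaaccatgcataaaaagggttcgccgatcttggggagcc
CXCL8: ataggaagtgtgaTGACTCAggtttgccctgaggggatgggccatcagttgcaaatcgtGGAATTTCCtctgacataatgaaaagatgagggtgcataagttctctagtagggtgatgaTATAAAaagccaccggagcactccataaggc
IL11: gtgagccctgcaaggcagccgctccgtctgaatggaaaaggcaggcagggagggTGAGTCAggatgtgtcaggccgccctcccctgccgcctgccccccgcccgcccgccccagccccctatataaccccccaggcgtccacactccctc

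IL6, CXCL2, CXCL3 and CXCL8 held a kB motif, 4 of the 6 promoters, in a window of 250 bases upstream of the start. Of all 35116 promoters, 9.15% held at least 1 of the NF-kB motifs in a window of that length, 6.57% the AP-1 motif and 10.7% the TATA box. In IL6 the consensus began 73 bases before the start, in CXCL2 78 and in CXCL3 79. CXCL2 and CXCL3 were 73.3% identical over this window, and each held another copy of the shorter motif, from 53 bases before the start. CXCL8 held the shorter motif, the AP-1 motif and the TATA box, IL11 the AP-1 motif, and TNF the TATA box. A match is a run of letters and not a measured binding site.

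AU-rich windows are shown for the members whose longest GENCODE 29 transcript holds the longer AU-rich motif TTATTTATT. Each is the first stretch of 30 bases with the most copies of ATTTA, which are in capitals.
TNF: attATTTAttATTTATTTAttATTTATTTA
CXCL2: aagtcttctATTTATTTATTTATTTATTTA
CXCL8: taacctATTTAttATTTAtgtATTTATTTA
LIF: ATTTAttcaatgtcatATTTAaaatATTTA
IL11: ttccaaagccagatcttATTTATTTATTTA

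TTATTTATT occurred in 5 of the 9 members (TNF, CXCL2, CXCL8, LIF and IL11) and in 9.74% of the transcripts of all tested genes. IL11 had 6 copies and TNF and CXCL2 had 5 each, counting overlapping copies over the whole transcript. CXCL2 had the highest density of ATTTA among the members, 8.21 per kilobase, against a median of 0.968 in tested genes, and 99.9% of tested transcripts had a lower density than CXCL2. CSF1 lay near that median, at 0.95 per kilobase.

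By its treatment labels, the comparison of PA with BSA asks how palmitic acid affects the cells' expression of these genes. In the libraries labelled PA, CSF1, IL6, TNF, CXCL3 and CXCL2 had fitted levels 3.47 to 21.9 times those in BSA, and LIF had 1.76 times. CXCL8 and the nearly silent CCL2 overlapped between the groups, and IL11 differed by less than its error. None of the members passed the test over all 17449 tested genes, which called 0 genes in all (0% of those tested; edgeR quasi-likelihood test, adjusted p under 0.05). The smallest adjusted p of any gene was 0.0544. At an unadjusted p under 0.05, edgeR gave 6 of the 8 tested members as higher and 0 as lower in PA, against 13.1% of all tested genes higher and 11.2% lower (24.3% in all). The PA values lay above both BSA values for 6 of the 8 and below them for 1, against 28.9% and 29.1% of all tested genes. A log2 fold change over 1 was seen in 5 of the 8, against 10.7% of all tested genes, and 0 of the 8 lay under -1, against 16.9%. TNF passed the count filter only through its PA libraries, and without it these counts were 5 of 7, 5 of 7 and 4 of 7. The median log2 fold change was 2.03 over the tested members, 1.79 without TNF and -0.12 over all tested genes. The members and the related lists below were chosen with earlier results of these data known. Their counts and medians set against all tested genes therefore describe them and test nothing. DESeq2 called 5 members higher (CSF1, IL6, TNF, CXCL2 and CXCL3), where it called 6.13% of all tested genes higher and 4.42% lower. edgeR without a count filter called the same 5 members, against 3.06% of all genes higher. With the trend over transcript GC content and length taken out, edgeR called 4 members (CSF1, IL6, TNF and CXCL3), against 5.51% of genes higher. limma-voom and limma on the FPKM values called 0 members and 0.00573% of all tested genes as higher. Without BSA replicate 1 edgeR called 7 members, but also 25.3% of all genes, as higher. Without BSA replicate 2 it called 6 members and 27.3% of all genes as higher. Without PA replicate 1 it called CSF1 and TNF, against 0.0864% of all genes, and without PA replicate 2 it called CSF1, against 0.0481%. An exact permutation test of 2 libraries against 2 cannot give a two-sided p below 0.333.

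**Figure D1:**
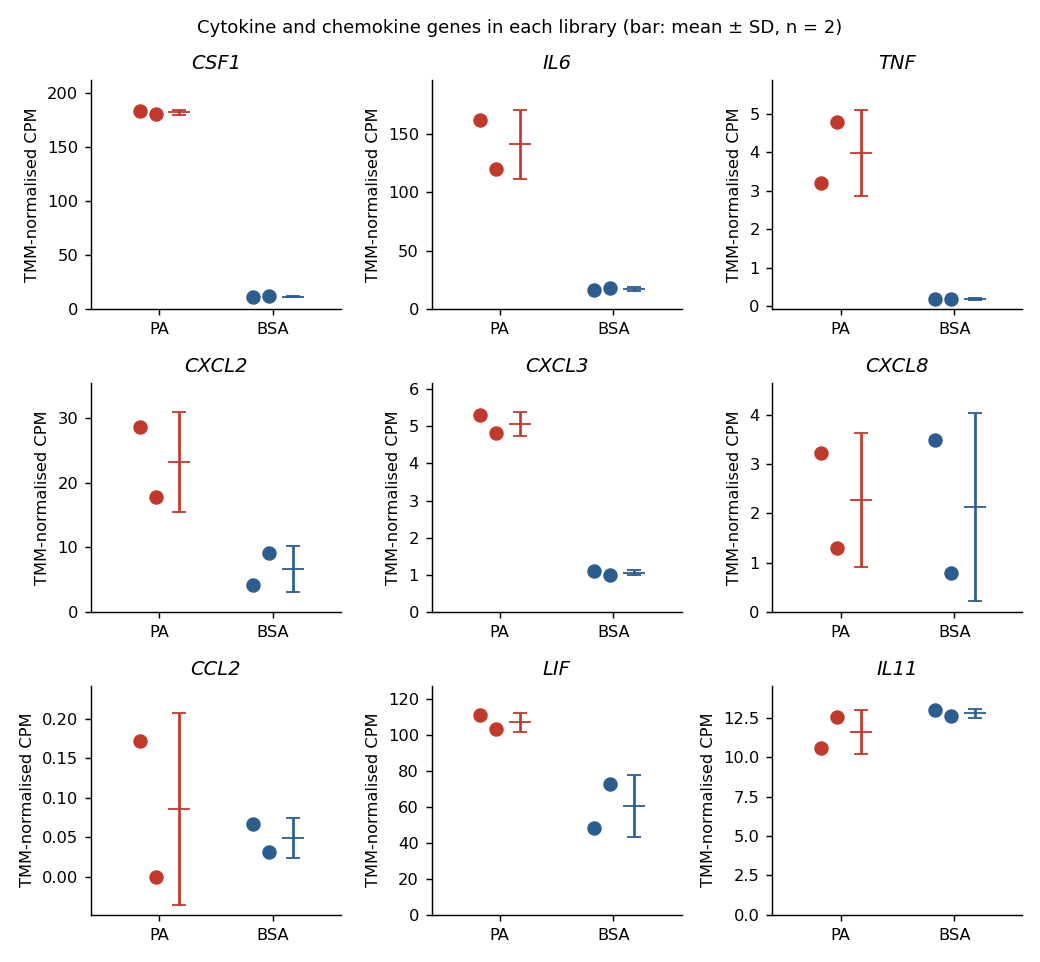
TMM-normalised CPM (vertical axes, linear) of the 9 members in each library, with PA left of BSA; dots are libraries and bars the mean ± SD (n = 2). The PA dots lie far above the BSA dots for CSF1, IL6, TNF and CXCL3, and the groups overlap for CXCL8 and CCL2.

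CSF1 encodes the growth factor that keeps macrophages alive and drives them to divide (ENSG00000184371, hg38 chromosome 1, 109910242 to 109930992, plus strand). It had 5329 and 4140 counts in the libraries labelled PA and 335 and 375 counts in BSA. In normalised terms these were 183 and 180 CPM in PA and 11.2 and 11.8 CPM in BSA. The replicates of each group nearly coincided, and all 4 ratios of a PA library to a BSA library lay between 15.3 and 16.3. The log2 fold change was 3.98 ± 0.22 (SE), with an edgeR adjusted p of 0.0544. Of all tested genes, 99.8% had a lower log2 fold change than CSF1.

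IL6, a cytokine of fever, acute-phase responses and STAT3 signalling, lies on chromosome 7 (ENSG00000136244, hg38, 22725884 to 22732002, plus strand). It had 4709 and 2758 counts in PA and 485 and 583 counts in BSA, or 162 and 120 CPM in PA and 16.2 and 18.3 CPM in BSA. PA replicate 1 stood above PA replicate 2, and both stood well above the BSA libraries, with ratios of 6.56 to 9.97. Its log2 fold change was 3.03 ± 0.27 (SE; edgeR adjusted p = 0.0589). The antisense gene IL6-AS1, which overlaps IL6, had 33 and 32 counts in PA and 4 and 10 in BSA, and whether counting used strand, which would separate their reads, is unknown.

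TNF encodes the cytokine whose receptors are among the classical triggers of NF-kB (ENSG00000232810, hg38 chromosome 6, 31575565 to 31578336, plus strand). It was scarce, with 93 and 110 counts in PA and 5 and 6 counts in BSA. That is 3.2 and 4.78 CPM in PA and 0.167 and 0.188 CPM in BSA. The groups did not overlap, and the ratios ran from 17.0 to 28.6, but the BSA level rests on 5 and 6 reads. The log2 fold change of 4.45 ± 0.47 (SE; edgeR adjusted p = 0.0589) was the largest among the tested members. On the log2(FPKM + 1) scale, which compresses low genes, it was 1.57.

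CXCL2, CXCL3 and CXCL8 encode chemokines that attract neutrophils through the receptor CXCR2, and CXCL8 also acts through CXCR1. All 3 lie on chromosome 4. CXCL3 (ENSG00000163734, hg38, 74036589 to 74038807, minus strand) had 154 and 111 counts in PA and 33 and 32 counts in BSA. In CPM it stood at 5.3 and 4.83 in PA and 1.1 and 1 in BSA, with close replicates and a log2 fold change of 2.26 ± 0.34 (SE; edgeR adjusted p = 0.0689).

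CXCL2 (ENSG00000081041, hg38, 74097040 to 74099196, minus strand) had 833 and 408 counts in PA and 125 and 293 counts in BSA. It stood at 28.7 and 17.7 CPM in PA and 4.18 and 9.19 CPM in BSA. The groups did not overlap, but the ratio of a PA to a BSA library ran from 1.93 to 6.85. Its log2 fold change was 1.79 ± 0.51 (SE; edgeR adjusted p = 0.14), and it was 1.36 without BSA replicate 1 and 2.49 without BSA replicate 2. Of the stretches of 50 bases in its longest transcript, 9.24% also occur in CXCL1 or CXCL3 transcripts, so some of its reads may be shared; for CXCL3 the share was 3.02%, all with CXCL2.

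CXCL8, the chemokine known as interleukin-8 (ENSG00000169429, hg38, 73740519 to 73743716, plus strand), had 94 and 30 counts in PA and 104 and 25 counts in BSA. That is 3.23 and 1.31 CPM in PA and 3.48 and 0.784 CPM in BSA. Replicate 1 stood above replicate 2 in each group by more than the groups differed, and the ratios ran from 0.375 to 4.12. The log2 fold change was 0.10 ± 0.83 (SE; edgeR adjusted p = 0.951), with a log2 fold change of 1.57 without BSA replicate 1 (edgeR adjusted p = 0.00144) and -0.58 without BSA replicate 2 (edgeR adjusted p = 0.118). At 33.4% GC its transcript is in the lowest of the 10 GC bins. Its log2 ratio of BSA replicate 2 over 1 was -2.15, where the median of that bin was -1.46, and after correction for GC content and length its log2 fold change was 1.14 (edgeR adjusted p = 0.195).

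CCL2, a chemokine that attracts monocytes (ENSG00000108691, hg38 chromosome 17, 34255274 to 34257208, plus strand), had 5 and 0 counts in PA and 2 and 1 counts in BSA. It did not pass the count filter and was not tested. At this depth a count of 0 in PA replicate 2 allows a level of up to 0.13 CPM (3 counts, counting error only), so no difference was detectable.

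LIF and IL11 encode cytokines of the IL-6 family, which signal through the shared receptor chain encoded by IL6ST. LIF, best known for holding mouse embryonic stem cells in an undifferentiated state (ENSG00000128342, hg38 chromosome 22, 30240453 to 30246759, minus strand), had 3228 and 2376 counts in PA and 1452 and 2326 counts in BSA. Its levels were 111 and 103 CPM in PA and 48.6 and 72.9 CPM in BSA. The PA libraries lay above both BSA libraries, though the BSA libraries differed from each other by 0.59 on the log2 scale. The log2 fold change was 0.82 ± 0.27 (SE; edgeR adjusted p = 0.17), with 1.15 without BSA replicate 2 and 0.58 without BSA replicate 1. The antisense gene LIF-AS2, which overlaps LIF, had 124 and 97 counts in PA and 51 and 66 in BSA.

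IL11, a cytokine known for fibrosis and platelet formation (ENSG00000095752, hg38 chromosome 19, 55364382 to 55370463, minus strand), had 308 and 289 counts in PA and 388 and 401 counts in BSA. Its levels were 10.6 and 12.6 CPM in PA and 13.0 and 12.6 CPM in BSA. PA replicate 2 and BSA replicate 2 were nearly equal, and the log2 fold change was -0.14 ± 0.30 (SE; edgeR adjusted p = 0.785). A difference from LIF in response to PA was not tested.

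**Figure D2:**
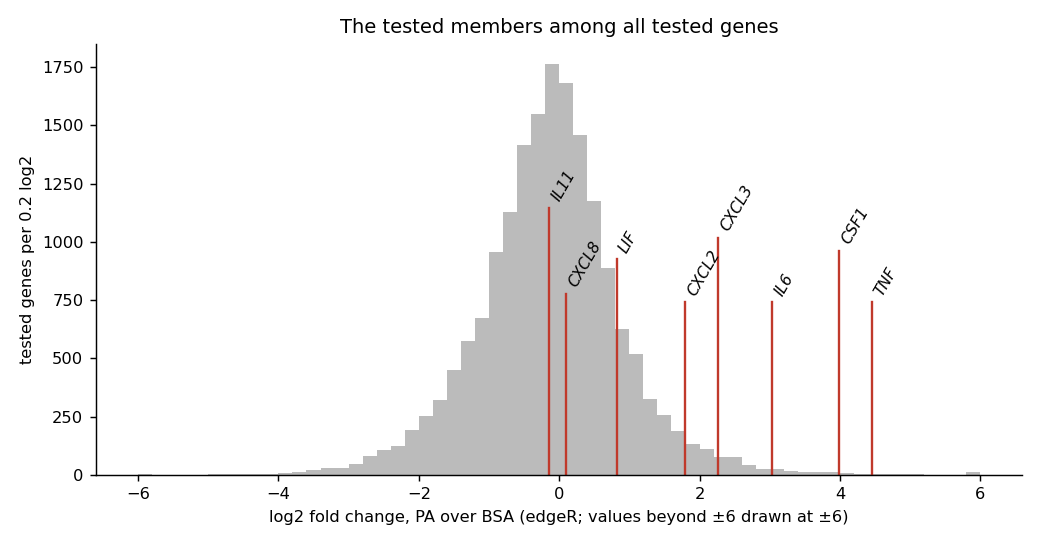
Histogram of the log2 fold change of PA over BSA (horizontal axis) for all 17449 tested genes, in steps of 0.2 with values beyond ±6 drawn at the ends; red lines mark the 8 tested members, and their heights carry no value. TNF (4.45) and CSF1 (3.98) lie in the far right tail, while CXCL8 (0.10) and IL11 (-0.14) lie near the centre.

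Per unit of gene length (FPKM, the authors' values), the order of the members differed between the groups. In the libraries labelled PA, CSF1 (33.8 ± 0.69 FPKM), IL6 (31.8 ± 6.95) and LIF (27.0 ± 1.58) led (SD, n = 2). CXCL2 followed at 16.2 ± 5.51 FPKM, then IL11 at 4.21 ± 0.48. TNF at 2.32 ± 0.63 and CXCL3 at 2.22 ± 0.16 FPKM came next, and CXCL8 and CCL2 were lowest at 0.857 ± 0.52 and 0.0435 ± 0.062. In BSA, LIF led at 16.0 ± 4.15 FPKM, followed by IL11 (4.89 ± 0.23), CXCL2 (4.87 ± 2.47) and IL6 (4.09 ± 0.24). CSF1 came after these in BSA at 2.25 ± 0.019 FPKM, and CXCL8, CXCL3, TNF and CCL2 were under 1 FPKM on average. IL6 overlapped with CSF1 and with LIF in PA, TNF overlapped with CXCL3 in PA, and in BSA CXCL2 overlapped with IL11 and IL6 and CXCL8 with CXCL3, so these neighbours in the order did not differ beyond their spread.

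The PA replicates also differed among the members. The log2 ratio of PA replicate 2 over replicate 1 was -1.31 for CXCL8, -0.69 for CXCL2 and -0.43 for IL6, and 0.58 for TNF. Over all tested genes its median was -0.0027, with 5% of genes below -0.77 and 5% above 0.59. CSF1, LIF and CXCL3 had ratios between -0.13 and -0.03.

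**Figure D3:**
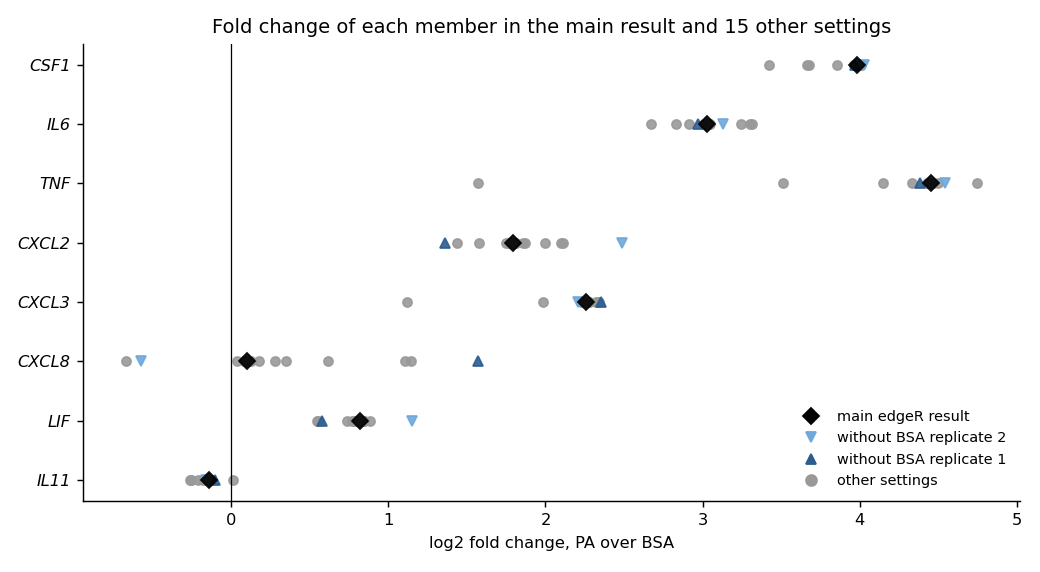
Log2 fold change of PA over BSA (horizontal axis) for each tested member in the main edgeR result (black diamonds), without BSA replicate 1 or 2 (blue triangles) and in the other settings (grey). CSF1 and IL6 stay above 2.67 in every setting drawn, while CXCL8 runs from -0.67 to 1.57.

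Receptors of the members were present in the same cells for some ligands. TNFRSF1B, the inducible TNF receptor, had 607 and 594 counts in PA and 48 and 28 counts in BSA. Its log2 fold change was 4.23 ± 0.46 (SE; edgeR adjusted p = 0.0589). TNFRSF1A, the broadly expressed TNF receptor, had 5432 and 4980 counts in PA and 4058 and 4345 counts in BSA (log2 fold change 0.57; edgeR adjusted p = 0.184). CSF1R, the receptor of CSF1, had 543 and 479 counts in PA and 132 and 181 counts in BSA (log2 fold change 1.97 ± 0.32 SE; edgeR adjusted p = 0.0729). IL6R, the receptor chain that binds IL-6, had 2558 and 1849 counts in PA and 581 and 888 counts in BSA (log2 fold change 1.83 ± 0.28 SE; edgeR adjusted p = 0.0689). In these receptors the PA libraries lay above both BSA libraries, as they did for 28.9% of all tested genes.

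The other receptor chains overlapped between the groups or were barely counted. IL6ST had 719 and 522 counts in PA and 3705 and 497 in BSA, and LIFR had 2265 and 1911 counts in PA and 3756 and 917 in BSA, so BSA replicate 1 was the highest library for both and BSA replicate 2 the lowest. IL11RA had 127 and 44 counts in PA and 61 and 133 in BSA. CXCR2, the receptor of the CXC chemokines described here, had 2 and 2 counts in PA and 2 and 0 in BSA. CXCR1 and CCR2 were not analysed here. Of 7 receptors tested, edgeR called 0 at an adjusted p under 0.05 and gave 4 as higher and 0 as lower at an unadjusted p under 0.05. DESeq2 called 3 of them higher. The shares over all tested genes were 13.1% higher and 11.2% lower at that unadjusted p, and 6.13% higher by DESeq2.

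The other cytokine and chemokine genes of the table were mixed. Of 13 tested interleukins and colony-stimulating factors, 6 were higher and 1 lower (CNTF) in PA at an unadjusted p under 0.05 and 0 passed the adjusted test (edgeR; DESeq2 called 2 higher). Over all tested genes 13.1% were higher and 11.2% lower at that unadjusted p, and DESeq2 called 6.13% higher. Of the 13, IL1A, IL1RN, IL34, CSF2 and TSLP passed the count filter only through their PA libraries and CNTF only through BSA; among the other 7, 2 were higher and 0 lower, with a median log2 fold change of 0.53 (0.62 over the 13). IL32, an inflammatory cytokine, stood at 279 and 267 CPM in PA and 70.5 and 84.0 CPM in BSA (log2 fold change 1.82 ± 0.21 SE; edgeR adjusted p = 0.0589). IL34, the other ligand of CSF1R, had 67 and 64 counts in PA and 10 and 14 in BSA (log2 fold change 2.70; edgeR adjusted p = 0.0689). EBI3, a subunit of IL-27 and IL-35, had a log2 fold change of 1.04 (edgeR adjusted p = 0.15) and IL18 one of 0.38 (edgeR adjusted p = 0.347).

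Other chemokines showed no common direction. Among 5 tested genes of a list of CC and CX3C chemokines with CXCL16, 1 was higher (CCL22, named after its values were seen, with 29 and 17 counts in PA and 4 and 4 in BSA, which passed the filter only through PA) and 1 lower (CCL28) at an unadjusted p under 0.05 (edgeR, 0 at the adjusted p; DESeq2 called 0). Over all tested genes 13.1% were higher and 11.2% lower at that unadjusted p. CCL5, a T cell attractant, was the most abundant of these chemokines, with 2200 and 1779 counts in PA and 1653 and 2854 in BSA. CXCL16 had a log2 fold change of 0.64 (edgeR adjusted p = 0.275). CCL28, a mucosal chemokine, stood at 7.75 ± 0.57 CPM in PA and 13.5 ± 0.73 CPM in BSA (SD, n = 2; log2 fold change -0.80, edgeR adjusted p = 0.194). Of the other CXC genes of chromosome 4, CXCL10, an interferon-induced T cell attractant, was the 1 tested gene and passed the filter only through BSA, with 6 and 3 counts in PA and 66 and 11 in BSA (log2 fold change -2.86; edgeR adjusted p = 0.193). Its BSA libraries differed from each other more than PA differed from the lower of them. The CXCL10 transcript, at 37.5% GC, is in the lowest of the 10 GC bins. Its log2 ratio of BSA replicate 2 over 1 was -2.68, where the median of that bin was -1.46.

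Of 11 tested TNF superfamily ligands other than TNF, 1 was higher (TNFSF9) and 2 lower (TNFSF10 and TNFSF13) at an unadjusted p under 0.05 and 0 passed the adjusted test (edgeR; DESeq2 called 1 higher), with a median log2 fold change of -0.20. The shares over all tested genes were 13.1% higher and 11.2% lower at that unadjusted p, and 6.13% higher by DESeq2. LTA passed the filter only through PA and TNFSF4, TNFSF10 and TNFSF13B only through BSA; among the 5 genes that reached it in both groups, 1 was higher and 1 lower, with a median of 0.02. TNFSF9, the ligand of the costimulatory receptor 4-1BB, had 2914 and 2687 counts in PA and 646 and 629 in BSA (log2 fold change 2.39 ± 0.23 SE; edgeR adjusted p = 0.0589). TNFSF13 had a log2 fold change of -0.86 (edgeR adjusted p = 0.204), CD70 of 0.85 and TNFSF12 of -0.25. TNFSF10, which encodes the death ligand TRAIL and was named after its values were seen, had 0 and 0 counts in PA and 28 and 12 in BSA (edgeR adjusted p = 0.099). With 3 counts allowed over the PA group, PA was 11.2-fold below the pooled BSA level. That value allows for no error in BSA, whose libraries stood at 0.937 and 0.376 CPM, so the difference from BSA replicate 2 alone is smaller. With TNFSF10 set to that value the list's median was the same.

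NF-kB genes other than the members showed 12 of 24 tested genes higher and 0 lower in PA at an unadjusted p under 0.05, 0 at the adjusted p (edgeR; DESeq2 called 7 higher and 0 lower), with a median log2 fold change of 0.55. Of all tested genes, 13.1% were higher and 11.2% lower at that unadjusted p, and DESeq2 called 6.13% higher and 4.42% lower. TRAF1, an adaptor of TNF receptors, stood at 105 and 91.2 CPM in PA and 9.3 and 10.6 CPM in BSA. ICAM1, an adhesion molecule for leukocytes, stood at 214 and 216 CPM in PA and 26.5 and 14.1 CPM in BSA. The inhibitor genes NFKBIE and TNFAIP3 had log2 fold changes of 2.07 ± 0.26 and 1.67 ± 0.22 (SE; edgeR adjusted p = 0.0597 and 0.0624). RELA, the subunit most often found at inflammatory genes, had 9019 and 7666 counts in PA and 8667 and 12546 in BSA, and its groups overlapped.

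**Figure D4:**
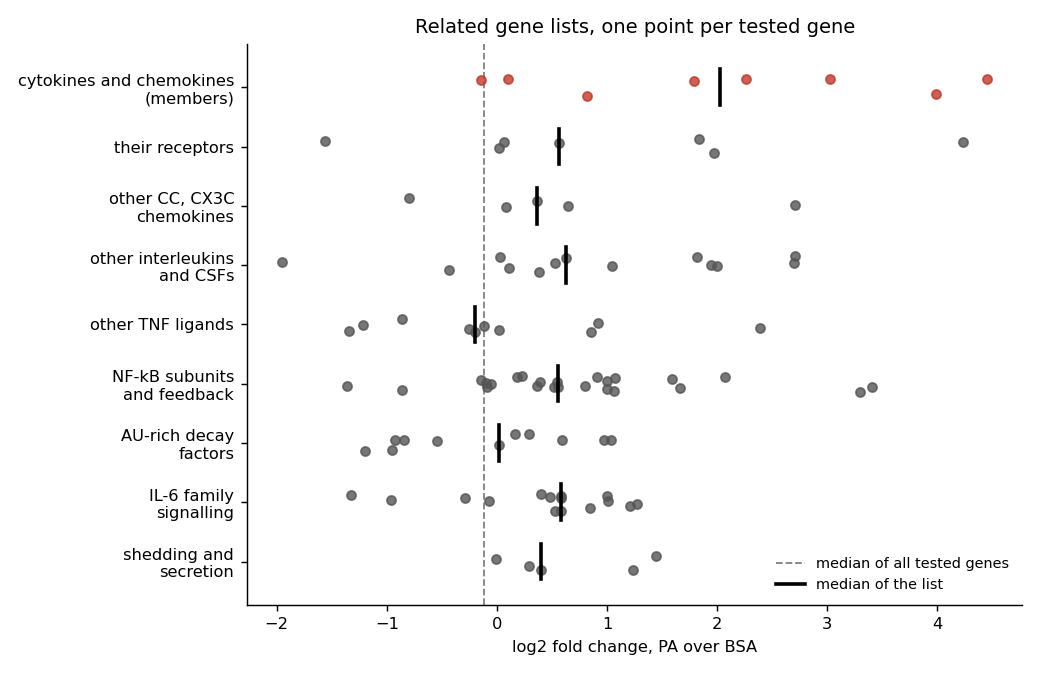
Log2 fold change of PA over BSA (horizontal axis) for the tested members (red) and related lists (grey), 1 point per tested gene, with the median over all tested genes of each list (black bars) and of all tested genes (dashed line, -0.12). The members' median is 2.03 and that of the NF-kB list 0.55; TNFSF10, at 0 counts in both PA libraries, and the single tested CXC gene CXCL10 are not drawn.

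Factors that decay AU-rich messages and enzymes that release TNF were also read. ZFP36 and ZC3H12A, which encode decay factors of inflammatory messages, had log2 fold changes of 1.04 ± 0.26 and 0.97 ± 0.28 (SE; edgeR adjusted p = 0.113 and 0.142). TIA1 and HNRNPD, other proteins that bind AU-rich RNA, had -1.19 and -0.96 (edgeR adjusted p = 0.166 and 0.168). Over 11 such genes 2 were higher (ZFP36 and ZC3H12A) and 3 lower (TIA1, HNRNPD and TIAL1) at an unadjusted p under 0.05, 0 at the adjusted p (edgeR; DESeq2 called 0), with a median of 0.02. Over all tested genes 13.1% were higher and 11.2% lower at that unadjusted p. TIA1, HNRNPD and TIAL1 transcripts had 36.6%, 36.1% and 39.3% GC, in the 2 lowest of the 10 GC bins. The median log2 fold changes of those bins were -0.81 and -0.53. With the GC and length trend taken out, edgeR called 2 of the 11 higher and 0 lower at an adjusted p under 0.05. Of all genes it then called 5.51% higher and 2.62% lower. ADAM17, the protease that sheds TNF from the membrane, stood at 58.7 ± 2.68 CPM in PA and 25.0 ± 6.21 CPM in BSA (SD, n = 2; log2 fold change 1.23, edgeR adjusted p = 0.1). RHBDF1, a partner of ADAM17, stood at 154 ± 13.3 CPM in PA and 56.4 ± 6.49 CPM in BSA (log2 fold change 1.45, edgeR adjusted p = 0.0689), while RHBDF2 and ADAM10 had 0.29 and 0.40.

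Genes of IL-6 family signalling showed 5 of 15 higher and 1 lower in PA at an unadjusted p under 0.05, 0 at the adjusted p (edgeR; DESeq2 called 3 higher and 1 lower), with a median log2 fold change of 0.58. The shares over all tested genes were 13.1% higher and 11.2% lower at that unadjusted p, and 6.13% and 4.42% by DESeq2. PIM1, a kinase gene induced by STAT3, and JAK1, the kinase at these receptors, had log2 fold changes of 1.01 ± 0.21 and 0.85 ± 0.21 (SE; edgeR adjusted p = 0.0891 and 0.11). PIAS3, an inhibitor of STAT3, had 1.27 ± 0.21 (edgeR adjusted p = 0.073). SOCS3, the feedback inhibitor of IL-6 signalling, had 1275 and 1170 counts in PA and 758 and 1347 in BSA.

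Endothelial markers were at a low level in all libraries, and the 3 of 4 that were tested (PECAM1, VWF and CDH5) passed the count filter only through their PA libraries, so a count of higher genes among them shows nothing further. PECAM1, VWF, CDH5 and KDR summed to 3.47 and 3.22 CPM in PA and 0.268 and 0.533 CPM in BSA. CDH5 had 62 and 32 counts in PA and 4 and 5 in BSA. PECAM1 had 21 and 16 counts in PA and 3 and 0 in BSA, and VWF had 17 and 26 in PA and 1 and 12 in BSA. KDR had 1 and 0 counts in PA and 0 and 0 in BSA. Fibroblast markers summed to 126 and 161 CPM in PA and 119 and 114 CPM in BSA, nearly all from COL1A1 and PDGFRB, while COL1A2 had no count in any library. The part of either list in the results above was not tested. By the labels all libraries come from the TOV-112D line, and bulk RNA does not show which cells carried these transcripts.

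The 5 genes outside the list whose profile over the 4 libraries was closest to the mean profile of the 8 tested members were ALPG, SLCO2A1, SCN4A, SMPD1 and ABHD2. Likeness was the root-mean-square distance between log2 CPM values centred on each gene's mean, and it ran from 0.048 for ALPG to 0.106 for ABHD2. SLCO2A1, a prostaglandin transporter gene, stood at 69.0 and 64.0 CPM in PA and 15.3 and 16.1 CPM in BSA.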

How the data were processed

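RNA of 4 TOV-112D libraries, 2 labelled PA and 2 labelled BSA, was prepared with a NEBNext Ultra kit, per the labels' protocols. The submitters' processing notes name hg38, HISAT2, StringTie and SAMtools. Versions, annotation release, counting settings and strand are not given in the sources consulted. The deposited table gives raw read counts per gene and, per the file headers, FPKM values by the authors.

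Groups came from the sample titles. The test on counts was that of edgeR 4.0.16 (R 4.3.3): TMM factors, filterByExpr (about 10 counts, 0.343 CPM, in 2 libraries), quasi-likelihood F test, Benjamini-Hochberg adjustment over 17449 genes at 0.05. SE values were derived from the log2 fold change and F. CPM values are TMM-normalised. At these depths genes under 1 CPM rest on few reads. Sampling noise alone gives a median chi-square of 0.455 between replicates, and it was 2.1 for PA and 27.2 for BSA, so no library was a copy. The procedure was run on simulated counts that had the same spread in both groups and no GC trend. That run does not show how the test performs with the spread between the BSA libraries seen here. The members and lists were chosen with earlier results of these data known. Named from each list were at most 4 genes of smallest p with a mean of at least 1 CPM, besides members, their receptors, SPTLC2 and ZDHHC15; genes outside this rule (RELA, SOCS3, CXCL10, CCL22, CNTF, IL1A, IL1RN, CSF2, TSLP, LTA, TNFSF4, TNFSF10, TNFSF13B, TIAL1 and markers) were named after their values were seen. Not every gene falling under this rule is reported here.

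Alternatives were other factors (RLE, upper quartile), no filter, 1 CPM in 2 libraries, DESeq2 1.42.0, limma 3.58.1 (voom, or log2(FPKM + 1) and log2(FPKM + 0.1)), a replicate block, subtraction of a loess fit (span 0.3) on GC content and log2 length of the longest GENCODE 29 transcript (95.1% of tested genes), and leaving out each library. Of table genes with a GENCODE 29 entry, 81.7% shared the chromosome and at least 1 end. Figures used matplotlib 3.10.9.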

Additional observations from a re-analysis of the deposited data

How the results depend on the processing

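Over the 15 alternatives, the log2 fold changes of CSF1, IL6, TNF, CXCL2, CXCL3 and LIF were positive in each one run. CXCL8 was -0.67 when PA replicate 1 was left out, -0.58 without BSA replicate 2 and 1.57 without BSA replicate 1. IL11 was 0.0094 without PA replicate 1 and -0.26 without PA replicate 2, its extremes with 1 library left out; correction for GC content and length also gave -0.26. No member passed with RLE factors, upper-quartile factors, a filter of 1 CPM, limma-voom or limma on FPKM values, and the number of genes called in all was 0, 0, 0, 1 and 1 (1 on each FPKM scale). Without a filter edgeR called 5 members and 1302 genes in all (4.72%), and DESeq2 5 and 1842 (10.6%). Correcting for GC content and length, edgeR called 4 members (CSF1, IL6, TNF and CXCL3) and 1350 genes in all (8.13%). Leaving out 1 library gave 1 to 7 members and 9 to 10467 genes in all: 7 members without BSA replicate 1 (47.9% of all genes called), 6 without BSA replicate 2 (57.3%), 2 without PA replicate 1 (CSF1 and TNF) and 1 without PA replicate 2 (CSF1). The remaining sample of the reduced group is then assumed to vary like the other group. The median of the members was 1.34 on the log2(FPKM + 1) scale, where the pseudocount compresses low genes, and 1.83 to 2.35 with 1 library left out. The replicate block, which assumes that equal numbers mark a pair, called 4 members and 537 genes in all, and together with the GC and length trend removed 5 and 1352; the labels do not say that numbers pair samples, and the deviations of same-numbered libraries did not correlate (Pearson r = -0.0038 over 17346 genes). The cause of these differences in counts was not tested. Depth limits CCL2, TNF in BSA, CXCR2 and CXCL10, which rest on few reads.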
